A study of Mus musculus with 4 samples.

Results

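Open chromatin was compared between mouse cDC1 and pDC at the MHC class II locus on chromosome 17 and at Ciita on chromosome 16. The members were the distinct peak intervals and footprints that overlapped chr17:34120000-34550000, the window of the class II and antigen processing genes, or chr16:10440000-10560000, the window of Ciita with its alternative promoters, in the mm9 build that the files use. Intervals of the cell types that overlapped by at least 1 bp were merged into 1 region. This gave 134 of the 93615 regions of the whole lists, 107 in the class II window and 27 in the Ciita window. The cDC1 list gave 125 of its 83701 intervals and 805 of its 513689 footprints, and the pDC list 79 of 51941 intervals and 486 of 312959 footprints.

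The cells were grown from mouse bone marrow in a culture of successive steps that ended with Flt3 ligand, and were sorted as CD11c+ CD11b+ XCR1+ cells (cDC1, labelled classical dendritic cells) and CD11c+ CD11b- B220+ cells (pDC, plasmacytoid dendritic cells). No strain, age or further treatment is given in the labels. Omni-ATAC-seq, which marks accessible DNA by the insertion of Tn5 transposase, was done on 2 samples of each cell type, and the deposited lists hold the samples of a cell type merged. Every value below is therefore 1 number per cell type with no replicate error and no p-value, and intervals cover counting error only. The identity of the cells was not checked against marker genes, because no mm9 annotation was used here.

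MHC class II molecules are heterodimers that show peptides from the endosomal pathway to CD4+ T cells. H2-Aa and H2-Ab1 encode the chains of the I-A molecule and H2-Eb1 a chain of I-E. H2-DMa and H2-DMb1 form H2-M, which exchanges peptides on class II, and H2-Oa and H2-Ob form H2-O, which restrains H2-M. Tap1, a subunit of the peptide transporter, and Psmb8, a subunit of the immunoproteasome, serve the class I pathway from within the same locus. Class II transcription depends on CIITA, a coactivator without DNA binding of its own that docks on RFX and NF-Y at the X and Y boxes of class II promoters. Ciita itself has alternative promoters, of which a myeloid one is known from conventional dendritic cells and macrophages, a lymphoid one from B cells and pDC, and another from cells exposed to interferon-γ.

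In RefSeq's GRCm38.p6 assembly the protein-coding genes run in the order H2-Oa, Brd2, H2-DMa, H2-DMb2, H2-DMb1, Psmb9, Tap1, Psmb8, Tap2, H2-Ob, H2-Ab1, H2-Aa, H2-Eb1, H2-Eb2 along chromosome 17, and Tvp23a, Ciita, Dexi, Clec16a along chromosome 16. The order carries over to the windows only as far as the builds do not differ, and positions do not carry over. No region below was therefore assigned to a gene, exon, intron or promoter, and regions are named by their mm9 positions.

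The X and Y boxes that tie these genes together were read from RefSeq promoters, 250 bases before to 50 after each start site, which covered 8 of 9 class II genes of a fixed list, 4 of 5 antigen processing genes (Tap1, Tap2, Psmb8, Psmb9, Tapbp) and 5 of 7 regulators (Ciita, Rfx5, Rfxank, Rfxap, Nfya, Nfyb, Nfyc). Those of H2-Ab1, Tap2, Ciita and Rfxap were not used here. The stretches from 145 to 26 bases before the start site are shown for the 5 class II genes with both boxes at a close spacing. H2-Aa is also shown, which had the Y box but no exact match to the X1 core. Only exact matches were searched, so an X box with other letters would be missed. Positions are GRCm38.p6 and cannot be set beside the mm9 regions. Capitals mark the X1 box core AGNAAC, with NGNTG where it followed at once, and the Y box GATTGG, searched on both strands (CCAATC on the other).

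H2-Eb1, chr17:34305722-34305841, plus strand: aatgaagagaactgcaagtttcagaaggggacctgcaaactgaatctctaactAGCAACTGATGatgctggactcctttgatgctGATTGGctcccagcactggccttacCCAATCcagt
H2-Eb2, chr17:34325530-34325649, plus strand: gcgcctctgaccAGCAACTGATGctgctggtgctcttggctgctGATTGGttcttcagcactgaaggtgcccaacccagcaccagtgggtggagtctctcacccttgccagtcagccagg
H2-DMb1, chr17:34153046-34153165, plus strand: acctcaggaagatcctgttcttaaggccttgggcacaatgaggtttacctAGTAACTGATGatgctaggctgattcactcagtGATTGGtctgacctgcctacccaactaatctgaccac
H2-Oa, chr17:34092234-34092353, plus strand: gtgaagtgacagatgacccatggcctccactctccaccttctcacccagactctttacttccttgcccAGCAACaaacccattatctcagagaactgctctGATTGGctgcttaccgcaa
H2-Ob, chr17:34238760-34238879, plus strand: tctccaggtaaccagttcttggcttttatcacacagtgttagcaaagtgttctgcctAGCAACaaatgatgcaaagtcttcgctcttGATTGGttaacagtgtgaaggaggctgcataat
H2-Aa, chr17:34287849-34287968, minus strand: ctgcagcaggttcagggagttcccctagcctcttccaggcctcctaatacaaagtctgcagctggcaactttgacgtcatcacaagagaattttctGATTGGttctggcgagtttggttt

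The longer Y box GATTGG was found in 8 of 9 class II promoters (H2-DMa has 2 start sites), against 16.1% of all 32851 promoters, and the shorter ATTGG, which it contains, in 8 against 37.4%. For H2-DMa the GATTGG match lay 199 bases before start site 2, and start site 1 had no match. The X1 core AGNAAC alone was in 6 of the 9 but also in 48.1% of all promoters. The H2-DMa match among these was on the other strand, at position 3 after start site 2. With NGNTG following it was in 3, those of H2-Eb1, H2-Eb2 and H2-DMb1, against 1.18%.

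In H2-Eb1 and H2-Eb2 the Y box began 32 bases after the X1 core, in H2-DMb1 and H2-Oa 33 and in H2-Ob 30. An X1 core followed by GATTGG on the same strand at 30 to 33 bases, a spacing taken from these genes after they had been seen, was present in 25 of the 32851 promoters, 0.0761%, these 5 included. Among antigen processing promoters GATTGG was in 2 of 4, those of Tap1 and Psmb9, which are divergent and share the same 6 bases, chr17:34187334-34187339 (GRCm38.p6), so that this is 1 site. AGNAAC was in 1 of the 4 (Psmb8). Among 9 promoters of regulators GATTGG was in 4 (Rfx5, Rfxank and 2 of Nfyc) and AGNAAC in 2 (Rfx5 and 1 of Nfyc). GAAA, any pair of bases and GAAA again, the core of the interferon response element, was in none of these promoters and in 3.44% of all. The Ets core GAGGAAGT was likewise in none and in 3.20% of all. These matches describe letters in a window and were not compared with footprints.

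The windows were densely open in both cell types. Those of cDC1 covered more than those of pDC in the windows and over the whole lists alike, in terms of intervals. Intervals covered 14.1% of the class II window in cDC1 and 7.16% in pDC, and 10.1% and 5.93% of the Ciita window, while over the whole lists they covered 1.68% and 1.03% of the genome between the outermost intervals. Of the 134 regions 68 (50.7%) were open in both cell types, against 43.5% of all regions. Open in cDC1 only were 57 (42.5%, against 45.5%) and open in pDC only were 9 (6.72%, against 11.0%). When both lists were held to one length by keeping the best cDC1 intervals, 63 of 104 regions (60.6%, against 49.2%) were open in both cell types and 14 (13.5%, against 24.8%) in pDC only. With either list length, regions open in pDC only thus took a smaller share of the windows than of the whole lists.

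The shared regions of the windows were compared by height. The value deposited with each footprint is a whole number and was read as a tag count not scaled for depth. For each region the overlapping pair of a cDC1 and a pDC footprint with the most tags was taken. The ratio of its tag counts was divided by 3.28, the median of all 91319 pairs. The scaled ratio is thus cDC1 over pDC, with 1 for the typical pair. Of 55 regions with a pair, 18 (32.7%) were at least 2-fold higher in cDC1, against 8.93% of all regions with a pair, and 1 (1.82%) was at least 2-fold higher in pDC, against 12.6%. The median scaled ratio was 1.41, against 0.994 over the whole lists. The exact 95% interval of the ratio lay wholly above 1 in 35 regions, wholly below 1 in 4 and held 1 in 16. The same count was not made over all regions with a pair, so it has no background share and describes these 55 regions alone.

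A second measure, chosen after the data had been seen, covered all 68 shared regions. MACS2 wrote a fold enrichment and a −log10 p for each summit, and together they fix the pileup, the whole number of tags over the summit. The pileup ratio was divided by 3.14, its median over 40721 shared regions. It was at least 2-fold higher in cDC1 in 23 regions (33.8%, against 9.44%) and at least 2-fold higher in pDC in 1, against 13.8%. The median was 1.60, and 58 of the 68 regions lay above 1, against 20353 of all 40721. Of the 18 regions past 2-fold toward cDC1 in tag counts, 16 were also past it in pileup. MACS2's fold enrichment, in which each summit is divided by the tags around it, showed no such excess: scaled by its median, it was at least 2-fold higher in cDC1 in 3 of 68 regions (4.41%, against 5.80%) and in pDC in 3 (4.41%, against 6.34%). The background share of the pileup ratio varies with height. In 10 equal groups of all shared regions by combined pileup, the share past 2-fold toward cDC1 ranged from 0 to 20.7%. In the highest group it was 0.909%, where 6 of 16 regions of the windows passed. In group 7 it was 18.7%, where 2 of 10 passed. The share toward pDC fell from 37.8% in the lowest group to 1.1% in the highest. In groups 6 to 10 the median ratio of all regions was 1.08 to 1.21, so ratios above 1 were common at these heights.

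**Figure D1:**
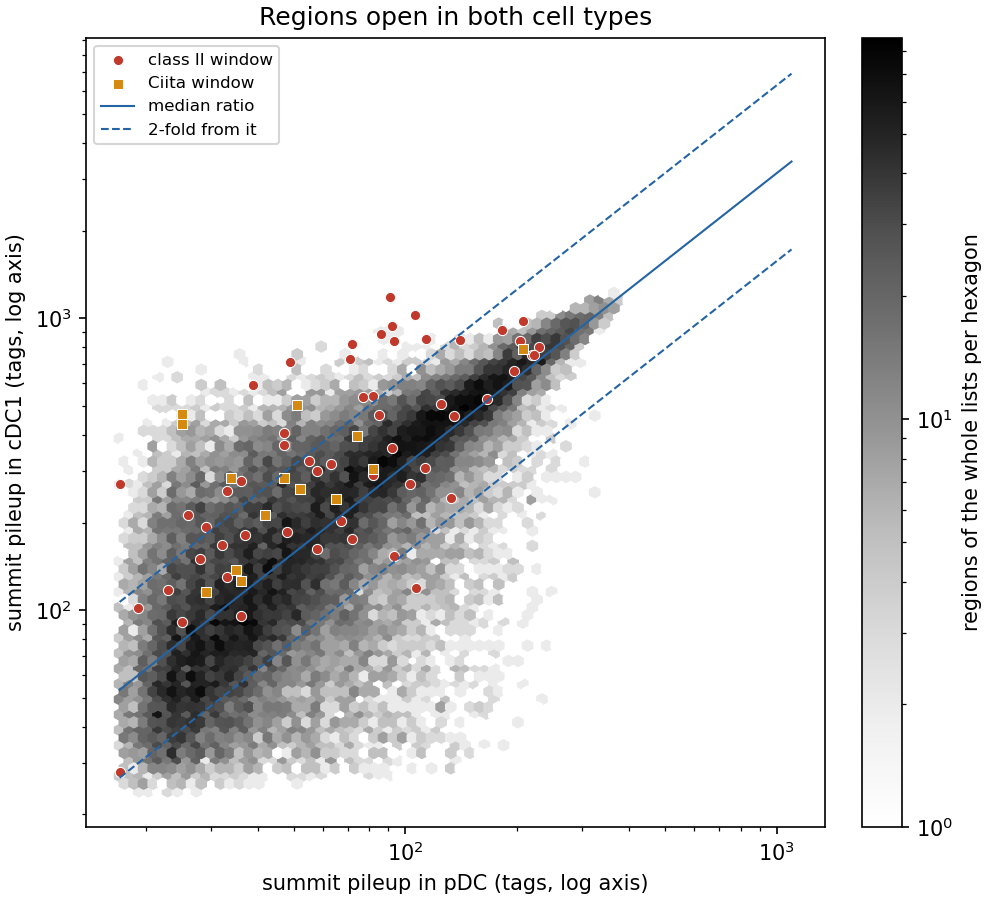
Summit pileup in pDC (x axis, tags, log scale) and in cDC1 (y axis, tags, log scale) of the regions open in both cell types, with all regions as grey hexagons, the class II window as circles and the Ciita window as squares. A solid line marks the median ratio, 3.14, and dashed lines a 2-fold distance from it; 23 of the 68 coloured points lie at least 2-fold above the median and 1 lies at least 2-fold below.

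Along the class II window the difference was uneven. Left of 34289682, 19 regions were shared and their median scaled pileup ratio was 1.09, with 1 past 2-fold toward cDC1. From 34289682 on, 35 were shared with a median of 2.11, and 18 were past 2-fold. In tag counts the medians were 1.16 and 2.10. The dividing point was chosen after the values had been seen and carries no test.

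**Figure D2:**
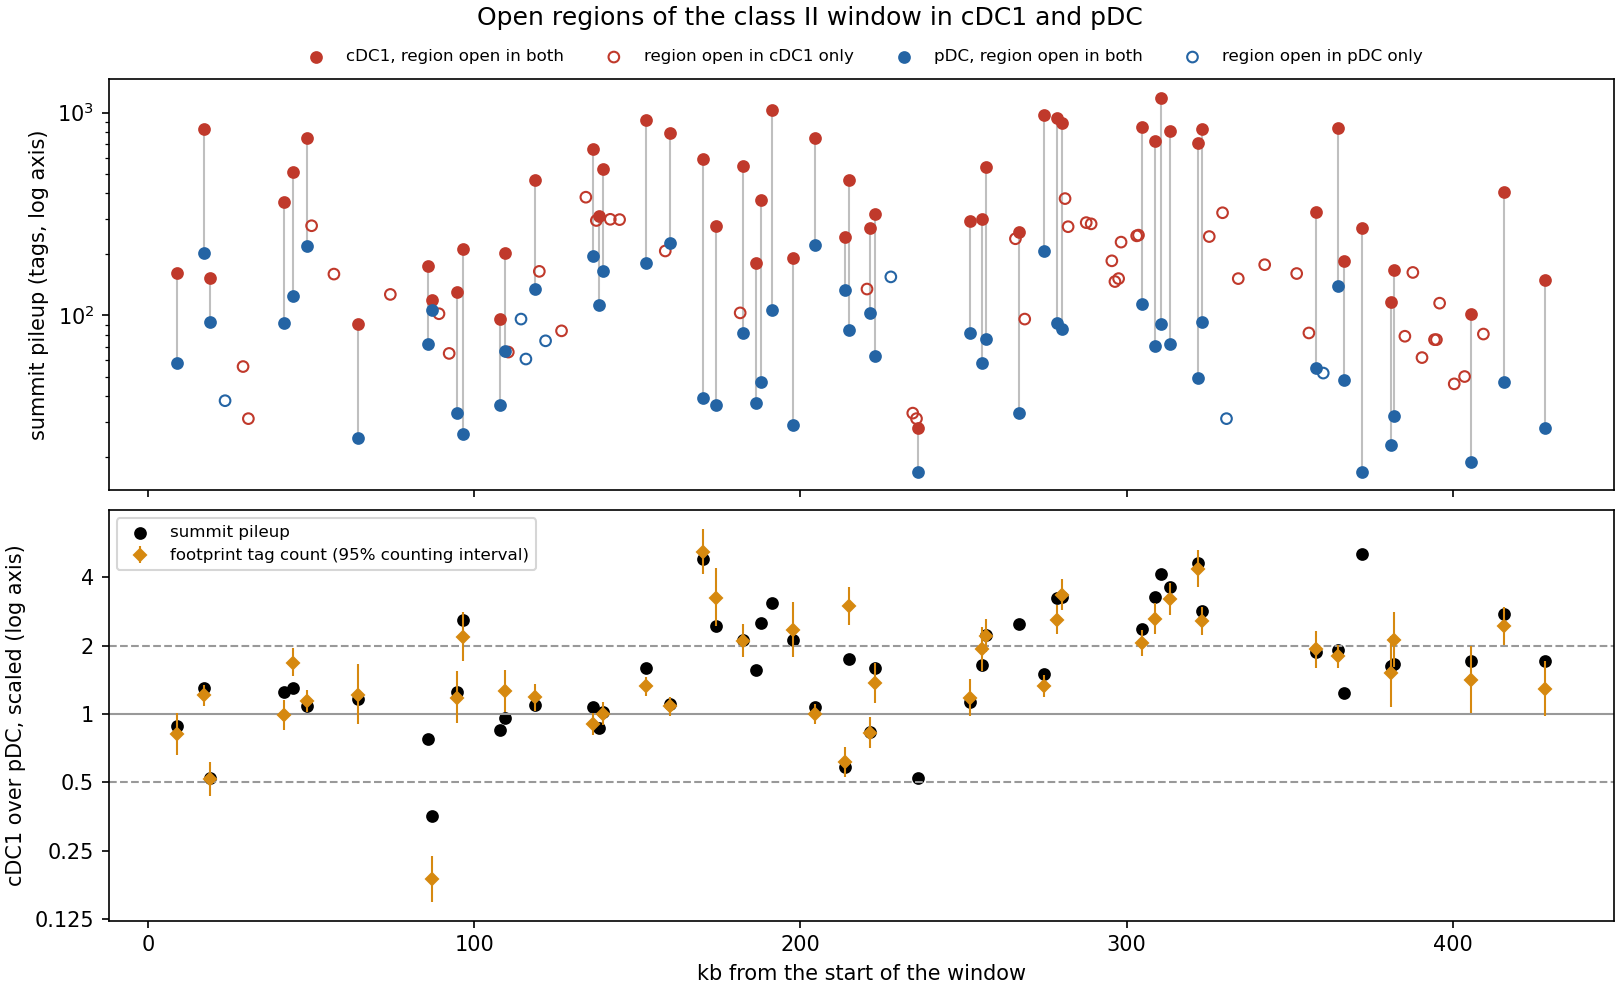
Class II window. The upper panel gives the summit pileup (tags, log axis) of each region by its distance from the window start in kb, with filled points joined by a line for regions open in both cell types and open circles for regions open in 1. The lower panel gives the scaled ratio of cDC1 over pDC (log axis) in summit pileup and in footprint tag count, the latter with exact 95% counting intervals, and most points past the upper 2-fold line lie from 170.1 kb on, where the median pileup ratio was 2.11.

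Among the strongest class II regions of the left side the scaled ratios stayed under 2-fold. At chr17:34272203-34272898 the pileup was 916 tags in cDC1 and 182 in pDC, a scaled ratio of 1.60 (1.36 to 1.89), with −log10 q (MACS2's p of the summit, adjusted over the genome) of 681 and 101. At chr17:34279418-34280737 it was 796 and 229, a scaled ratio of 1.11. This region had the largest −log10 q of the windows in pDC, 137, and 24 footprints there against 14 in cDC1.

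The first strong region of the window, chr17:34136713-34137717, had pileups of 834 and 204 and the most footprints in cDC1, 23, against 14 in pDC. Its scaled tag ratio was 1.21 (95% interval 1.09 to 1.34). Further right, chr17:34323776-34325228 held 18 and 14 footprints, of which 9 formed pairs, and 1571 and 479 tags at its strongest pair gave a scaled ratio of 1.00 (0.903 to 1.11).

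Right of that dividing point stood the class II regions that differed most toward cDC1 in either measure. At chr17:34289682-34290539 the strongest pair, at 34290132 to 34290145, held 1388 tags in cDC1 and 82 in pDC, a scaled ratio of 5.17 (4.13 to 6.54), and the pileups were 592 and 39. In scaled MACS2 fold enrichment its ratio was 1.44. The next region, chr17:34293896-34294265, had 551 and 52 tags, a scaled ratio of 3.24 (2.43 to 4.39), which turned to 0.71 in fold enrichment. At chr17:34310933-34311644, the region with the largest −log10 q of the window in cDC1, 699, the pileups were 1029 and 106, a scaled ratio of 3.09 (2.53 to 3.81), with no pair although pDC had 13 footprints there and cDC1 3.

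Further features of this side did not follow a single direction. At chr17:34334337-34335627, with 20 footprints in each cell type, the 5 pairs had scaled ratios from 1.22 to 3.20. The strongest pair, at 2.98, put it past 2-fold, but the sum over its pairs gave 1.83 and the pileup 1.75, and the strongest summits of the cell types lay 700 bp apart. Its neighbour chr17:34333372-34333830 went the other way, with 523 and 259 tags and a scaled ratio of 0.617 (0.53 to 0.718). At chr17:34501543-34501973 the tag ratio was 2.11 and the pileup ratio 1.66, so that the measures fell on either side of the 2-fold limit.

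The longest stretch of high signal in cDC1 ran from 34394447 to 34445443. MACS2's local background at a summit is the number of tags in the 10 kb around it, which could be recovered as whole tags, and stretches were defined, after the data had been seen, as at least 3 consecutive cDC1 regions within the top 1% of the list by that number. Over the 20 regions of this stretch the 10 kb held 4806 to 10017 tags in cDC1. At the 9 shared ones they held 615 to 1322 in pDC, which ranked between the 63.1 and the 95.2 percentile of pDC regions. The rule used the cDC1 values alone, so a higher number in cDC1 is partly built into it, and these values are a description.

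The summits inside the stretch were chosen by the same rule. The 9 shared regions had pileups of 712 to 1180 in cDC1 and 49 to 208 in pDC, and 8 were past 2-fold. The exception was the leftmost, chr17:34394447-34395117, with 979 and 208 tags and a scaled ratio of 1.50. It was also among the strongest of the windows in pDC, with a −log10 q of 123.

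Within the stretch chr17:34430285-34431021 had the highest pileup of the windows, 1180 tags in cDC1, with only 12 of 83361 cDC1 regions higher. In pDC it was 91, a scaled ratio of 4.13 (3.33 to 5.16). A single footprint was called in each cell type, with 2319 and 148 tags at places that did not pair. At chr17:34441658-34442157 the pair held 1763 and 124 tags, a scaled ratio of 4.34 (3.62 to 5.25), with the summits 7 bp apart. The regions at 34398359, 34399852, 34423991, 34428532, 34432871 and 34442454 had scaled tag ratios of 2.04 to 3.35. In scaled MACS2 fold enrichment, taken against the tags of the 10 kb around each summit, the same 6 regions turned toward pDC, with ratios of 0.621 to 0.955. In that measure the region at 34441658 had a ratio of 1.025.

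By the same rule, shorter stretches at 34164101 to 34170580 (3 regions) and 34253997 to 34261902 (6 regions) were high in both cell types. In the latter the 10 kb held 6597 to 9194 tags in cDC1 and 2948 to 3123 in pDC, within the top 1% of both lists, and the pileup ratios of its 3 shared regions were 0.867 to 1.07. In the former they were 1.09 to 1.30 in 2 shared regions. High local signal in cDC1 thus occurred in the class II window both with and without a difference from pDC. Of the 125 cDC1 regions of the windows 33 (26.4%) were within the top 1% of their list by tags in 10 kb, and of 77 pDC regions 5 (6.49%). Neighbouring regions share part of the same 10 kb, and 20 of the 33 lay in the longest stretch, so they are not separate observations.

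**Figure D3:**
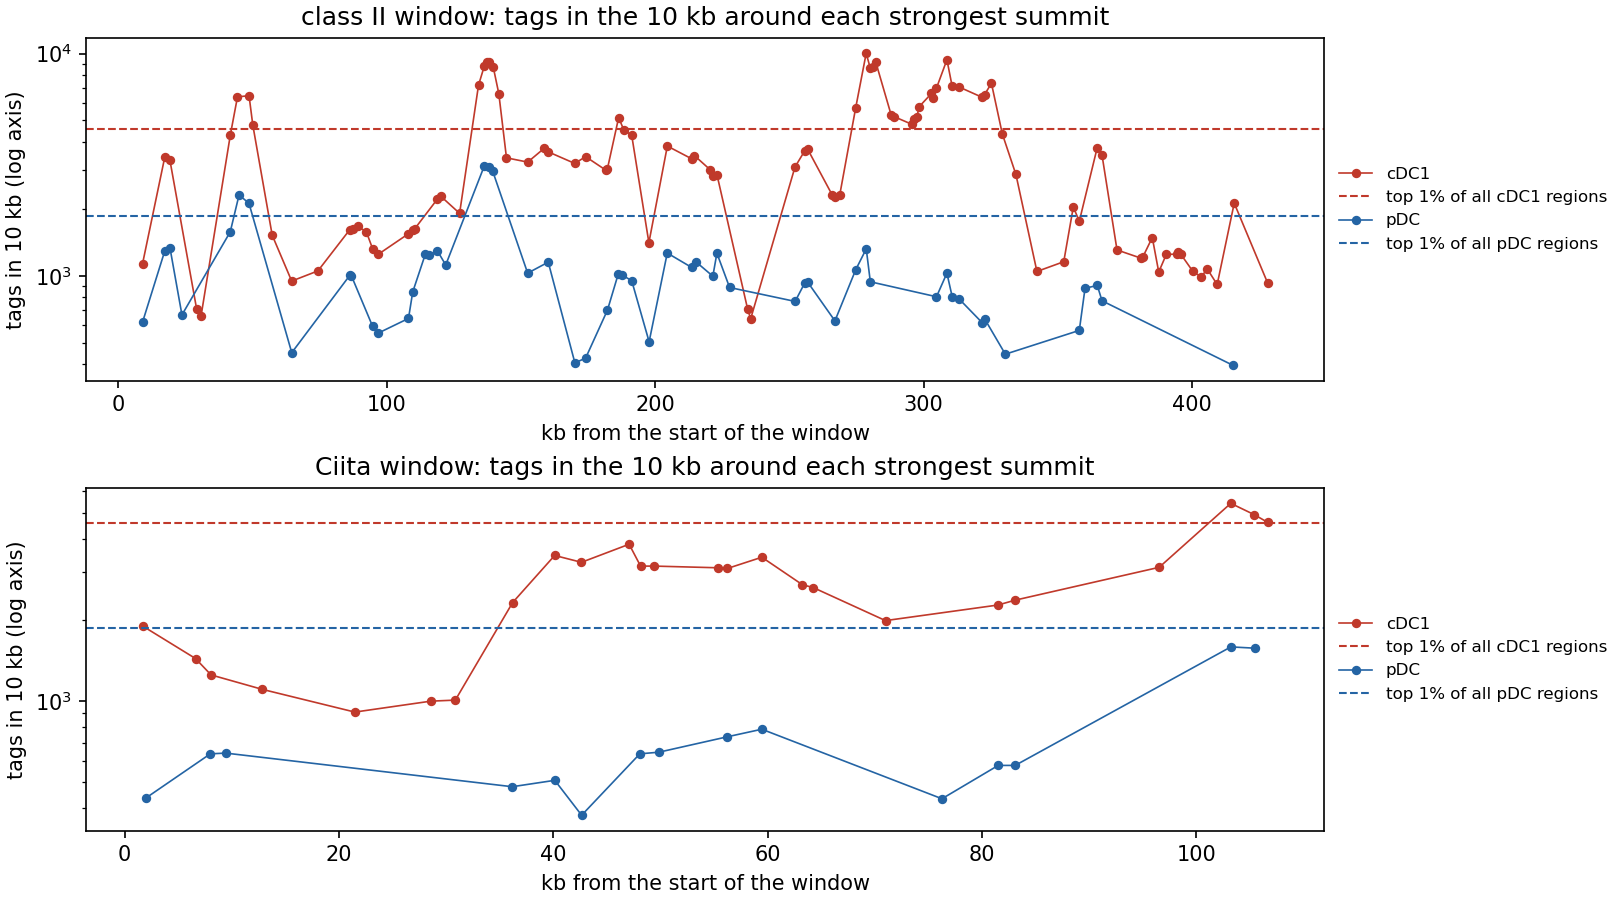
Tags in the 10 kb around the strongest summit of each region (y axis, log scale) by distance from the window start in kb (x axis), for regions where the local background exceeded the genome level. Red is cDC1, blue is pDC, and dashed lines mark the top 1% of each list; from 274.8 to 325.3 kb of the class II window cDC1 ran at 4806 to 10017 tags with pDC at 615 to 1322.

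The region chr17:34484406-34485338 was among the 5 of the window with the largest −log10 q in cDC1, 548, and had 1973 and 336 tags, a scaled ratio of 1.79 (1.60 to 2.02). The remaining regions past 2-fold in tag counts toward cDC1 began at 34216481 (535 and 75 tags, scaled ratio 2.18), 34301965 (1123 and 163, 2.10), 34317441 (467 and 61, 2.34), 34376390 (1232 and 170, 2.21) and 34534894 (980 and 123, 2.43). The last held 18 footprints in cDC1 and 16 in pDC. Of these only the first lay left of 34289682. Among regions without a pair, those beginning at 34307679, 34386713 and 34491682 had pileup ratios of 2.51, 2.48 and 5.05, the last with 270 and 17 tags. Their summits lay 478, 20 and 245 bp apart, so only those of the region at 34386713 stood close together.

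A single class II region was past 2-fold toward pDC. At chr17:34206512-34207472 the pair, at 34206803 to 34206836, held 120 tags in cDC1 and 195 in pDC, a scaled ratio of 0.188 (0.148 to 0.237). The strongest summits lay 548 bp apart and the pair lay near the pDC one, so that pileups of 119 and 107, a ratio of 0.354, were not taken at the same place. Just inside the limit was chr17:34139019-34139405, with 372 and 220 tags, a scaled ratio of 0.516 (0.436 to 0.613) and a pileup ratio of 0.524.

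Regions listed in cDC1 only numbered 46 in the class II window, with −log10 q of 3.14 to 97.1. Of them 9 were at 50 or above, against 7362 of 42640 cDC1-only regions of the whole lists. These 9 began at 34176576, 34194118, 34253997, 34264375, 34385652, 34449118, 34461982, 34471631 and 34507448, with pileups of 127 to 383. The one at 34461982 had the largest −log10 q, 97.1, and that at 34471631 held 17 footprints. In pDC only were 7, of which chr17:34347412-34348016 had a −log10 q of 85.2, a pileup of 155 and 5 footprints. The other 6 had −log10 q of 5.81 to 24.3.

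In the dense stretches of this locus a low −log10 q did not mean a low summit. Elsewhere in the class II window it could, as at the cDC1-only region beginning at 34150663, with a −log10 q of 3.245 and a pileup of 31. Because the listed p is taken against the tags of the surrounding 10 kb, regions within the dense stretches were listed as weak at heights that rank as strong elsewhere. The cDC1-only region chr17:34401783-34402299 had a pileup of 274 and a −log10 q of 7.75, with 9179 tags in its 10 kb, while the median −log10 q of 1961 cDC1 regions with a pileup within 5% of it was 159.5. Likewise chr17:34416281-34416494 had 147 tags and a −log10 q of 3.14, against a median of 69.6. The 11 cDC1-only regions of the long stretch had pileups of 147 to 377. The median over all cDC1-only regions of the genome was 60. That stretch was chosen for its high cDC1 tags in 10 kb, so these heights are partly built in and are a description. Whether pDC had no accessible site at these places or one under its own list's threshold cannot be told apart here.

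**Figure D4:**
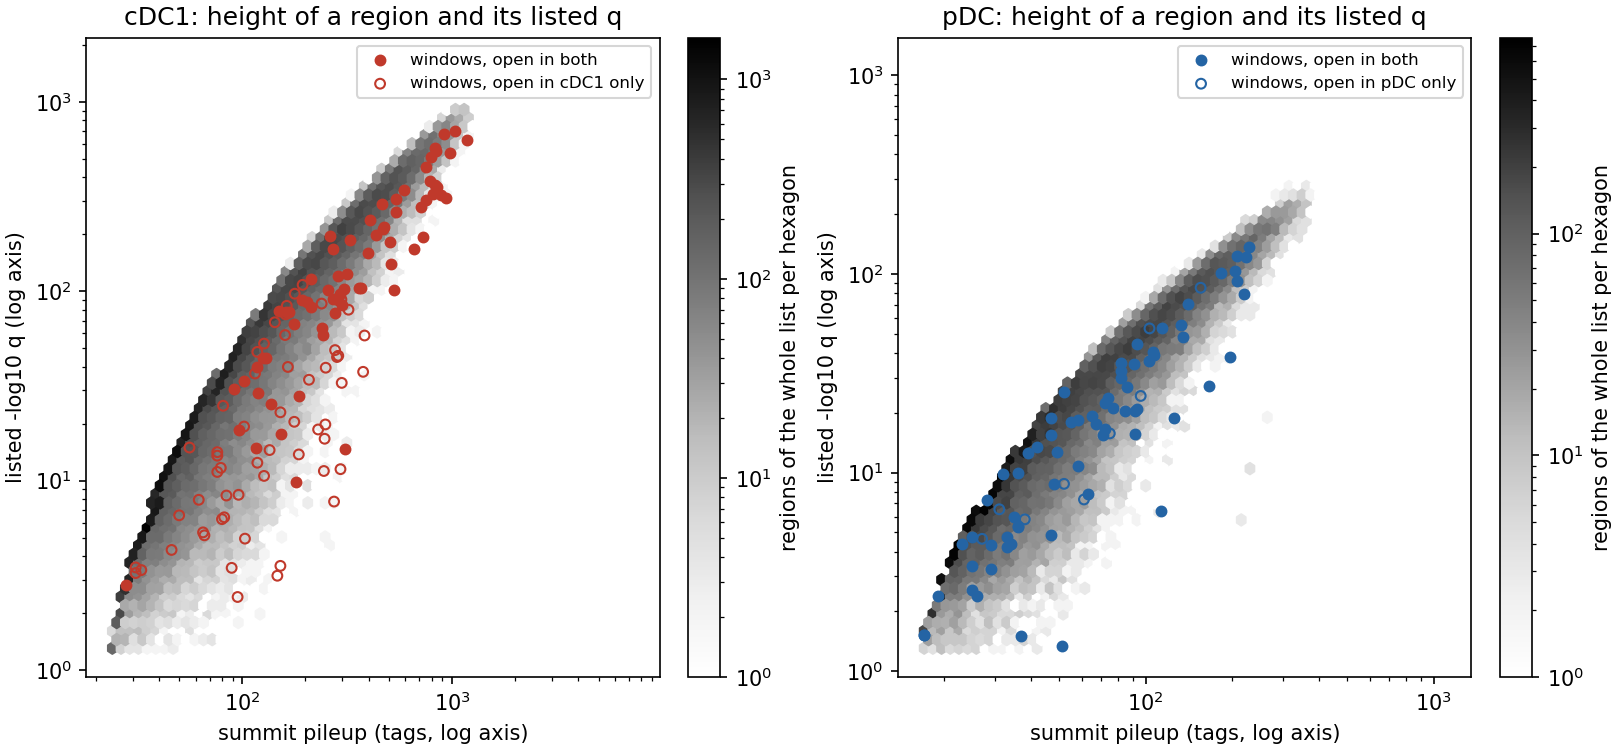
Listed −log10 q (y axis, log scale) by summit pileup in tags (x axis, log scale) in cDC1 (left) and pDC (right). Grey hexagons are all regions of the list, filled points are regions of the windows open in both cell types and open circles those open in 1; many of the open circles in cDC1 lie at the right edge of the grey field, as the one with a pileup of 274 and a −log10 q of 7.75.

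In the Ciita window all 14 shared regions had a scaled pileup ratio above 1, against 20353 of 40721 over the whole lists. Their median was 1.60, and 4 (28.6%, against 9.44%) were past 2-fold toward cDC1. In tag counts 2 of 12 regions with a pair (16.7%, against 8.93%) were past it, and those beginning at 10522961 and 10545132 were below 1. A neighbouring pair of regions stood far above the others. At chr16:10479823-10480426 the footprint pair at 10480160 to 10480182 held 1131 tags in cDC1 and 49 in pDC, a scaled ratio of 7.05 (5.29 to 9.58), and the pileups were 472 and 25, with −log10 q of 218 and 2.56. At chr16:10482353-10482837 it held 623 and 39 tags, a scaled ratio of 4.88 (3.53 to 6.93), and the pileups were 436 and 25. In scaled MACS2 fold enrichment these regions had lower ratios, 1.995 and 1.494. Summits of the cell types lay 11 and 16 bp apart in them. In pDC both were thus listed near the lower end, with 4 and 7 footprints against 6 and 4 in cDC1.

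The regions to the right of this pair had lower ratios, of unequal size. The region chr16:10487710-10488682 had pileups of 305 and 82 and a tag ratio of 1.12 (0.96 to 1.31), and chr16:10495588-10496537 had pileups of 241 and 65 and a tag ratio of 1.17 (0.972 to 1.42). Both intervals held 1. The latter had 12 footprints in pDC and 4 in cDC1. Between them chr16:10489146-10490050 had no pair and pileups of 285 and 34, a scaled ratio of 2.67 (1.86 to 3.93) at summits 437 bp apart. The regions beginning at 10475966 and 10499198, on either side of this group, had tag ratios of 1.70 and 1.64 and pileup ratios of 1.93 and 1.71, with intervals above 1.

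Near the left end of the window the regions beginning at 10441468 and 10461216 had tag ratios of 1.62 and 1.56, and that at 10447838 had no pair and a pileup ratio of 1.11. The sites listed in 1 cell type lay between them. The region chr16:10452546-10453072 was open in cDC1 only, with a −log10 q of 108, a pileup of 194 and 10 footprints. To its left chr16:10449193-10449674 was open in pDC only, with a −log10 q of 53.2, a pileup of 103 and 1 footprint. The other pDC-only region began at 10516135 with a −log10 q of 4.64.

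The other 10 cDC1-only regions of the Ciita window began at 10446483, 10468347, 10470614, 10486938, 10495114, 10503132, 10504054, 10510851, 10536269 and 10546447. Their pileups were 76 to 250 and their −log10 q 2.43 to 68.6. As in the class II window the pairing of these values was loose, since the region at 10536269 combined a pileup of 95 with the lowest −log10 q. The shared regions at 10521256 and 10522961 were weak in both cell types, with pileups of 137 and 116 in cDC1 and 35 and 29 in pDC, and their tag ratios of 1.28 and 0.949 had intervals that held 1.

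At the right end chr16:10542852-10543475 was the strongest region of the window in both cell types, with pileups of 788 and 208 and a tag ratio of 1.03 (0.936 to 1.14). Its neighbour chr16:10545132-10545709 gave different answers by measure. The footprint pair held 1265 and 393 tags, a scaled ratio of 0.983 (0.877 to 1.10), while the listed pileups were 504 and 51, a ratio of 3.14. The highest tag count in the region was more than 5 times the pileup in pDC, which occurred in 1 of 50148 pDC regions, against a typical quotient of 2.26. The listed pDC summit value there is therefore out of step with its footprints, and the cause was not tested. Without it 3 regions of the Ciita window were past 2-fold in pileup.

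**Figure D5:**
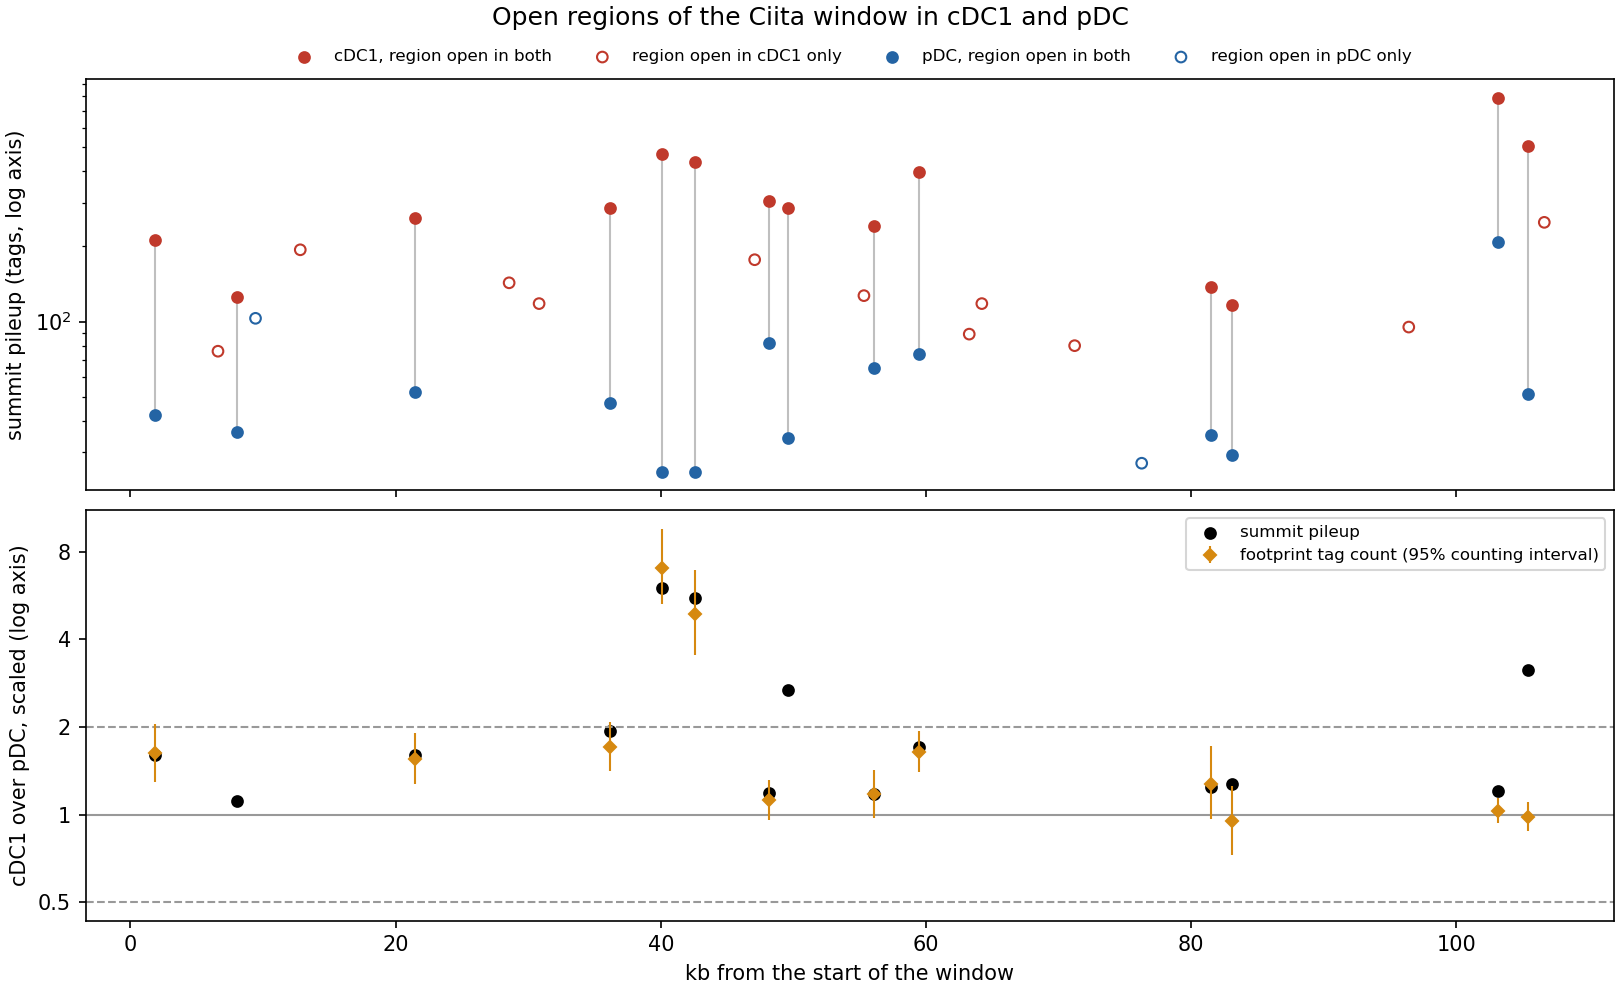
Ciita window, drawn as the class II window, with summit pileup (tags, log axis) above and the scaled ratio of cDC1 over pDC (log axis) below, by distance from the window start in kb. The regions at 40.1 and 42.6 kb have tag ratios of 7.05 and 4.88, and at 105.4 kb the pileup ratio of 3.14 and the tag ratio of 0.983 are far apart.

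Footprints of the windows were shared between the cell types in less than 50% of cases, as in the whole lists. A footprint was counted as shared where a footprint of the other cell type covered at least 50% of it. Of cDC1 footprints 237 of 805 (29.4%) and of pDC footprints 224 of 486 (46.1%) were shared, against 26.9% and 40.7% of all footprints. With the cDC1 list limited to the number of pDC footprints, the shares were 33.6% and 45.7%, against 38.0% and 34.8%, so the cDC1 share was then below that of the whole list and the pDC share above it. Inside regions open in both cell types the shares were 44.5% and 48.7%, against 45.1% and 48.4%. The median footprint of the windows held 480 tags in cDC1, where that of the whole list held 212, and 126.5 in pDC, where it held 100. The summits of shared regions lay a median of 23 bp apart, and 32 of 68 were within 20 bp of each other, against 37.4% of all shared regions.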

How the data were processed

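Omni-ATAC-seq lists of cDC1 and pDC were used, each from 2 samples that the authors merged. Per the study's methods and the labels, the authors used Trim Galore for trimming, Bowtie2 for alignment to mm9, SAMtools for removal of duplicates, MACS2 for peaks and HINT-ATAC for footprints, in versions not given in the sources used here. Positions ran past the GRCm38 ends on 8 of 21 chromosomes. The deposited peak lists give a fold enrichment, a ratio over background, with −log10 p and −log10 q per summit. The deposited footprint value was read as an unscaled tag count, in a window not given in the sources used here. 

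Summit lines of equal start and end made 1 interval. The pileup k and background b were solved from fold = (k + 1)/(b + 1) and the Poisson p, within 0.001 for 94115 of 94222 cDC1 and 59941 of 59941 pDC summits. The background exceeded the genome level at 73.9% and 82.2% of summits, as whole tags per 10 kb within a tolerance of 0.1, so a local background was in use although the methods name a setting without one. Local backgrounds and pileups assume tags extended to 200 bp. Whole-list depth is reflected in the genome backgrounds, which were 1.75 times as high in cDC1.

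The members, lists and motifs were chosen with earlier results of these data known. Named were every Ciita region and, in the class II window, the top 5 regions of each cell type by −log10 q and the top 5 by number of footprints, every region past 2-fold in tag counts, and those open in 1 cell type with a −log10 q of at least 50. Other regions were named after their values were seen. Ratio intervals are exact 95% binomial intervals for counting error only, since PCR reads without molecular identifiers are not independent molecules and both ends of a fragment may be counted. The steps were tested on simulated data. Python 3.11.15, numpy 2.4.6, pandas 2.3.3, scipy 1.17.1 and matplotlib 3.10.9 were used.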

Additional observations from a re-analysis of the deposited data

How the results depend on the processing

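No paired analysis was possible because each list merges the samples of its cell type, and no replicate could be left out. With intervals of −log10 q of at least 10, 43 of 109 regions (39.4%, against 36.3% of the whole lists) were open in both cell types and 4 (3.67%, against 8.34%) in pDC only, and at 50 or above 10 of 67 (14.9%, against 23.0%) and 2 (2.99%, against 3.78%). The windows were then covered at 12.7% and 5.30% (class II) and 9.05% and 3.81% (Ciita) in cDC1 and pDC at a limit of 10. With the cDC1 list limited to the length of the pDC list, 27 of 104 regions were open in cDC1 only, a share within 1 percentage point of that of the whole lists. In pDC only were 14 (13.5%, against 24.8%). At that length cDC1 covered 11.4% (class II) and 8.0% (Ciita) of the windows. No whole-list cover was computed for these alternatives. Shared footprints were 37.4% (cDC1, against 33.1%) and 60.3% (pDC, against 51.9%) at an overlap of 1 bp, and with the cDC1 footprint list limited 33.6% of cDC1 (against 38.0%).

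Of regions past 2-fold, 13 were higher in cDC1 and 2 in pDC when scaled by the reads in peaks the study lists, against 6.32% and 16.2% of all regions. Scaled by all reads, 43 of 55 were higher in cDC1, against 42.8%. In pileup, chosen after the data had been seen, 57 regions had both summits within 100 bp. Of these 19 were higher in cDC1 (33.3%, against 9.41%) and 0 in pDC (against 12.9%). Scaling by the genome backgrounds gave 52 of 68 higher in cDC1 (against 39.9%) and 0 in pDC (against 4.00%). With MACS2's fold enrichment 3 of 68 were higher in cDC1 (4.41%, against 5.80%) and 3 in pDC (against 6.34%), so the excess toward cDC1 was absent, and 7 named regions turned direction, with scaled ratios of 0.71 at 34293896, 0.955 at 34398359, 0.81 at 34399852, 0.621 at 34423991, 0.801 at 34428532, 0.911 at 34432871 and 0.644 at 34442454. Fold enrichment divides by the local background, which was itself higher in cDC1 at these regions. The cause of that higher local background was not tested. The other alternatives for regions past 2-fold tested 55 to 68 regions. They gave 15 to 23 higher in cDC1, against 8.25% to 10.4% of the whole lists, and 1 in pDC, against 12.7% to 13.8%. The lower depth of pDC limits what its list can hold, and differences under it were not detectable. Genome backgrounds were 1.75 times as high in cDC1. The median ratio of cDC1 over pDC was larger, 3.14 for pileups of shared regions and 3.28 for tags of footprint pairs, and the cause was not tested.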
